A study of Mus musculus with 4 samples.

Results

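The odorant receptor (Olfr) genes of the mouse were followed through 10 kb windows of the mm10 genome in a whole-genome bisulfite data set. A window was counted if it overlapped a RefSeq gene whose symbol starts with Olfr and held at least 10 CpGs that were read at least once in all 4 libraries. Of 1513 windows that overlapped such a gene, 1508 met this rule, out of 252642 windows of the autosomes and X tested in the same way. The 1508 receptor windows held 60319 of their 72649 listed CpGs and covered 1423 of 1427 placed receptor genes, of which 1109 are annotated as protein-coding and 317 as pseudogenes. This rule used position and read coverage only and no methylation level, but the members were chosen with earlier results of these data known.

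All 4 samples were mouse embryonic stem cells of the genotype Ogt fl/fl, in which Ogt carries loxP sites, grown on mitomycin-treated feeder fibroblasts with LIF and serum replacement. Its product, O-GlcNAc transferase, puts single N-acetylglucosamine sugars on nuclear and cytoplasmic proteins and binds the TET enzymes, which oxidise 5-methylcytosine. In the 2 Ogt iKO samples the gene was to be deleted by 4-hydroxytamoxifen (4-OHT) over 6 days, and the 2 controls were kept 6 days without it. Per the labels, feeders were sorted away, but YFP+ cells were selected only after 4-OHT, so the drug, the sort and the deletion cannot be told apart. The labels give CD90.2 as the stem-cell marker of that sort and CD326 (EpCAM) as the one that excludes feeders, whereas EpCAM is generally known on mouse embryonic stem cells, so which cells were kept rests on the labels and could not be checked here. The cells are not olfactory cells, and no expression was measured in these libraries, so the labelled cell type could not be checked by markers. Nothing in the labels says that replicates came from separate cultures, so any p-value refers at most to the spread between these samples. For the adjusted p-values of single windows that spread is a common value shared by all windows, not that of the window's own replicates.

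Bisulfite sequencing reads 5-methylcytosine and 5-hydroxymethylcytosine alike, and the methylation level given here is the share of reads that kept a C, pooled over the CpGs of a set within 1 library. The libraries held 79929994 (Ogt iKO replicate 1), 70974957 (Ogt iKO replicate 2), 68488024 (control replicate 1) and 64273609 (control replicate 2) reads over CpGs. Depth in the receptor windows was 4.52, 4.01, 3.82 and 3.58 reads per CpG in that order, so the iKO libraries were the deeper ones. The median receptor window rested on 128 reads in the shallowest library and 163 in the deepest, against 202 and 249 for all tested windows, because receptor windows hold fewer CpGs. Reads are counted at each CpG they cover, so these sums exceed the number of separate reads where a read spans several CpGs.

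Odorant receptors form the largest family of G-protein-coupled receptors in the mouse, and their genes stand in clusters on nearly every chromosome. Each gene has its coding sequence in a single exon, and each olfactory sensory neuron transcribes a single allele of a single receptor gene while heterochromatin marks cover the rest. Class I receptors lie together in the cluster on chromosome 7 that encloses the beta-globin genes, and class II receptors occupy the other clusters. The clusters are known as AT-rich and CpG-poor tracts, and outside olfactory tissue most of their genes are silent.

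The annotated starts of receptor genes show how few CpGs these windows offer. RefSeq start windows (250 bases before to 50 after the annotated start, assembly GRCm38.p6, which mm10 names) were matched by symbol for 944 receptor genes with 948 entries. In 686 entries (72.4%) the annotated start is itself an ATG codon, against 3.46% of other entries, so for most receptors the window lies around the coding start and not around a mapped transcription start. The following 5 are printed 5′ to 3′ in the direction of the gene, with every CpG in capitals, to set starts with no, few and many CpGs side by side. Olfr160 (M72, an acetophenone receptor used in targeting studies) lies at chr9:37712231-37712530 on the minus strand, Olfr17 (P2, used in axon-targeting studies) at chr7:107097217-107097516 on the plus strand and Olfr73 (mOR-EG, a eugenol receptor) at chr2:88035088-88035387 on the minus strand. Olfr15 lies at chr16:3838725-3839024 on the plus strand, and Olfr212, the receptor start with the most CpGs, at chr6:116506266-116506565 on the plus strand.
Olfr160: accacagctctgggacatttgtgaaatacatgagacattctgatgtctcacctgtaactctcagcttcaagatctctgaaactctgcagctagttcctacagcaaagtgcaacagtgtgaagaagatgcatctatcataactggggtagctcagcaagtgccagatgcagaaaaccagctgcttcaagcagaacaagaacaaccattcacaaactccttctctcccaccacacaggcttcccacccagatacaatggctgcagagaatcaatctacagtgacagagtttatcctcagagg
Olfr17: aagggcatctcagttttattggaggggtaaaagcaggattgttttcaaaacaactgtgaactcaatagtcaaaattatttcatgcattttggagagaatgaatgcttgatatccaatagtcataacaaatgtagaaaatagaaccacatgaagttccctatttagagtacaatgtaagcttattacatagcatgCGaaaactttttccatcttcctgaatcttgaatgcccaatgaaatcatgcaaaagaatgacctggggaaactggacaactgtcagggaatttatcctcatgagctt
Olfr73: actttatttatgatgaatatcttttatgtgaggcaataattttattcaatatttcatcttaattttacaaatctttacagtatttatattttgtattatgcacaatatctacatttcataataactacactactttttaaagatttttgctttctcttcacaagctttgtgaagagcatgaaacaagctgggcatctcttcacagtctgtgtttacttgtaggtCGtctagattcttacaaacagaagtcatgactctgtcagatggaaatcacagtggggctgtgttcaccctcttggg
Olfr15: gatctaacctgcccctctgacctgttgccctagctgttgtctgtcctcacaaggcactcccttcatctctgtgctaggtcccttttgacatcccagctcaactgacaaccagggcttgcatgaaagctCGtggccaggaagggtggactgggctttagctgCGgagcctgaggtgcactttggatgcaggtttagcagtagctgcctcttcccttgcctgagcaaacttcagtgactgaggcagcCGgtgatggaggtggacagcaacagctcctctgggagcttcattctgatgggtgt
Olfr212: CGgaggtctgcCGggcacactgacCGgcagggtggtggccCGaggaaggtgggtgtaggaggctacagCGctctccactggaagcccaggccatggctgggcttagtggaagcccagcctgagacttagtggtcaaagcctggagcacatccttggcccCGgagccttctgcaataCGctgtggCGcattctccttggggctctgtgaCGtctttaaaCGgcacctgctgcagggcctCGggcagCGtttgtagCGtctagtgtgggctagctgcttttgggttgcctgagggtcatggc
The Olfr160 start holds no CpG, those of Olfr17 and Olfr73 hold 1 each, that of Olfr15 holds 3 and that of Olfr212 holds 13. The median receptor start held 1 CpG against 8 in the other entries, and 316 (33.3%) held none, against 4.48%. The mean GC content was 36.1% in receptor starts and 54.4% in the others.

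At these single starts the libraries gave only a few reads. The single CpG of Olfr17, 56 bases before the annotated start, was read as methylated in 4 of 9 and 5 of 5 reads in the iKO libraries and in 4 of 4 and 2 of 2 in the controls. That of Olfr73, 26 bases before the start, was methylated in 0 of 2 and 3 of 4 iKO reads and in 1 of 3 and 5 of 6 control reads. The 3 CpGs of Olfr15 were methylated in 8 of 14 and 9 of 10 iKO reads and in 13 of 17 and 9 of 9 control reads. At the Olfr73 and Olfr15 starts the groups overlapped, and at the Olfr17 CpG iKO replicate 2 was as high as both controls. At the 4 CpGs of the Olfr212 start that all libraries covered, 3 of 12 and 2 of 14 iKO counts were methylated, against 4 of 8 and 7 of 18 control counts. Most counts there were thus unmethylated or evenly split in all 4 libraries. These CpGs lie close together, at -250 to -210 from the start, and the other CpGs of this start were not covered in all libraries. Each was covered by 1 to 6 reads per library, and 1 read can count at several of them. Both iKO shares were below both control shares on these few reads, and the difference was not tested.

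Receptor windows were highly methylated in the controls and lower in Ogt iKO cells. Over the 1508 windows the pooled level of iKO replicate 1 was 70.4% and that of iKO replicate 2 was 67.8%, while control replicate 1 stood at 74.7% and control replicate 2 at 79.9%. Both iKO libraries lay below both controls, but the controls differed from each other by 5.19 points, more than the 4.26 points between control replicate 1 and iKO replicate 1. The iKO mean was 69.1% ± 1.85 (SD, n = 2) and the control mean 77.3% ± 3.67 (SD, n = 2), so that iKO cells differed by -8.17 points, with a pooled SD of 2.91. The two-sided exact permutation p was 0.33, the smallest that the 6 arrangements of the labels can give. Leaving out control replicate 2 brought the difference to -5.57 points, and leaving out control replicate 1 to -10.8.

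The decrease extended over nearly the whole family. The iKO mean was below the control mean in 1456 of the 1508 windows (96.6%), which is close to the 96.4% of all tested windows. The median window fell by 8.0 points, with the 10th and 90th percentiles at -13.8 and -2.55, against a median of -7.79 over all tested windows. Levels of 70% or more were held by 1379 receptor windows (91.4%) in the controls and by 754 (50.0%) in iKO cells, against 83.4% and 53.7% of all tested windows. Both iKO libraries lay below both controls in 1008 receptor windows (66.8%), against 71.6% of all tested windows, and above both controls in 2 (0.133%), against 0.522%.

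Single windows were tested by quasi-binomial regression on their methylated and unmethylated reads, fitted over all 252642 windows with a dispersion moderated by limma. Calls needed a Benjamini-Hochberg adjusted p under 0.05 and a change of 10 points or more. The test is against no difference, while the median of all tested windows was -7.79 points. A call or its p-value therefore does not set a window apart from the general decrease. Of the receptor windows 143 (9.48%) were called lower in iKO cells, against 17.3% of all tested windows, and 0 were called higher, against 0.000792%. By size alone, at any p, 520 receptor windows (34.5%) were lower by 10 points or more, against 29.3% of all tested windows. Receptor windows rest on fewer reads, so the lower called share does not show a smaller decrease. With edgeR's quasi-likelihood test 128 (8.49%) were called lower, against 14.1%, and 0 higher, against 0.00198%. Limma on logit levels called 0 in either direction, as it did among all 252642 windows, and 528 receptor windows (35%) were lower at an unadjusted p under 0.05, against 33.4%. At an unadjusted p under 0.05 the first fit had 0 receptor windows higher (0.0329% of all windows), edgeR 0 (0.0269%) and limma on logit levels 1 (0.0637%). The called windows lay in 36 clusters and had 161 overlaps with receptor genes, a gene counting in each called window it overlaps. Their differences were -24.3 to -10.02 points with a median of -14.4. In all 143 the groups did not overlap, which the limits of a call on the same 4 libraries already favour. The like share of all called windows was not counted.

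The share of receptor windows called followed CpG number, and with it the reads per window. Windows were put in 5 classes by their listed CpGs, with limits from the quintiles of the receptor windows. With 18 to 32 CpGs, 7 of 309 receptor windows (2.27%) were called, against 2.57% of all windows of that class, and with 33 to 39 CpGs 15 of 325 (4.62%) against 4.1%. With 40 to 46 CpGs the calls were 20 of 292 (6.85%) against 5.69%, with 47 to 59 CpGs 40 of 285 (14.0%) against 9.39%, and with 60 to 175 CpGs 61 of 297 (20.5%) against 24.5%. In 3 of the 5 classes the receptor share was above that of the genome and in 2 below it. Called windows held a median of 47 tested CpGs, against 36 over all receptor windows.

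The level itself changed by a few points with CpG number, and the difference between groups by less. In the sparsest class the pooled level was 69.3% and 66.3% in the iKO libraries against 72.7% and 79.0% in the controls, a difference of -8.09 points. In the densest class it was 69.6% and 67.2% against 74.6% and 78.5%, a difference of -8.17. In between, the class of 47 to 59 CpGs had the highest level in every library, at 71.8% and 69.2% against 76.2% and 81.2%. Both end classes showed the iKO libraries below the controls, and over the 5 classes the difference stayed between -8.22 and -8.09 points. The gap between the densest and the sparsest class was 0.314 and 0.897 points in the iKO libraries against 1.88 and -0.494 in the controls, with overlapping groups (difference -0.0854 points, two-sided exact permutation p = 1).

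**Figure D1:**
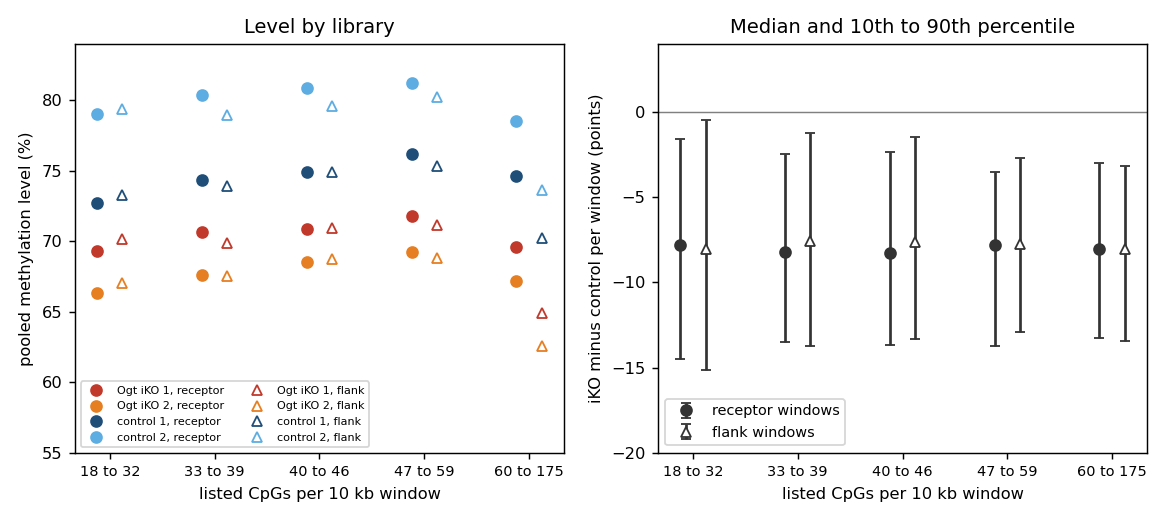
Left, pooled methylation level (%) of receptor windows (circles) and flank windows (triangles) in each of the 4 libraries, by class of listed CpGs per 10 kb window. Right, the median difference per window, iKO minus control in points, with bars from the 10th to the 90th percentile over windows. Receptor windows lie between 66.3% and 81.2% in every class, and flank windows fall lower in the class of 60 to 175 CpGs (62.6% to 73.6%), while all 10 medians at right lie between -8.27 and -7.55 points.

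Receptor windows were then compared with the surroundings of their clusters. Flank windows lay 200 to 500 kb outside a cluster and overlapped no Olfr gene. The 3723 flank windows held a median of 81 listed CpGs, against 42 in receptor windows, and were at 63.0% and 60.8% in the iKO libraries against 67.8% and 71.2% in the controls, a difference of -7.59 points. Receptor windows stood above their flanks by 7.43 and 7.001 points in the iKO libraries against by 6.88 and 8.71 in the controls. The iKO gaps lay between the control gaps, and the difference of -0.578 points was smaller than the pooled SD of 0.944 (two-sided exact permutation p = 1). The larger drop in receptor windows was therefore not distinguishable from the spread between libraries, and its sign turned without control replicate 2 (0.341 points).

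The height of receptor windows over their flanks was smaller within classes of CpG number. It was also smaller against flank windows outside genes, not matched for CpG number (control mean 76.1% against 77.3% in receptor windows). The parts of CpG number and of gene overlap were not told apart. Within the same 5 CpG classes, without flank windows of fewer than 18 or more than 175 CpGs, the gap shrank to 1.03 and 0.805 points in the iKO libraries against 0.977 and 1.63 in the controls. This is an average over unlike classes: with 60 to 175 CpGs the receptor windows stood at 69.6% and 67.2% against 64.9% and 62.6% for the flanks in the iKO libraries, and at 74.6% and 78.5% against 70.2% and 73.6% in the controls, while with 18 to 32 CpGs they were slightly below their flanks in every library. In the class of 60 to 175 CpGs the match is loose, with a median of 77 listed CpGs in receptor and 97 in flank windows. The gaps over all classes overlapped between the groups, with a difference of -0.383 points (pooled SD 0.344, two-sided exact permutation p = 0.667). It was -0.0585 points without control replicate 2, and -0.772 points with flank windows that overlap no gene, a setting added after seeing the data in which the two-sided exact permutation p was 0.33, the smallest possible. Against all 251134 other tested windows the receptor windows stood 4.08 and 3.79 points higher in the iKO libraries against 3.54 and 5.13 points higher in the controls, again with overlapping gaps (difference -0.398 points, two-sided exact permutation p = 1).

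Vomeronasal receptor genes (Vmn1r and Vmn2r), the pheromone receptor families that are likewise clustered and CpG-poor, were the set most like the odorant receptors. Their 1083 windows, with a median of 41 listed CpGs, were at 68.6% and 66.6% in the iKO libraries against 72.3% and 77.5% in the controls, a difference of -7.36 points. Odorant receptor windows stood above them by 1.87 and 1.24 points in the iKO libraries against by 2.35 and 2.37 in the controls. Both iKO gaps lay below both control gaps, with a difference of -0.806 points (pooled SD 0.314) and the smallest p of the two-sided exact permutation test (0.33). Without 1 library the difference ran from -1.12 to -0.492 points, the latter without iKO replicate 2. Within the CpG classes used for the flanks, a setting added after seeing the data, it was -0.849 points.

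**Figure D2:**
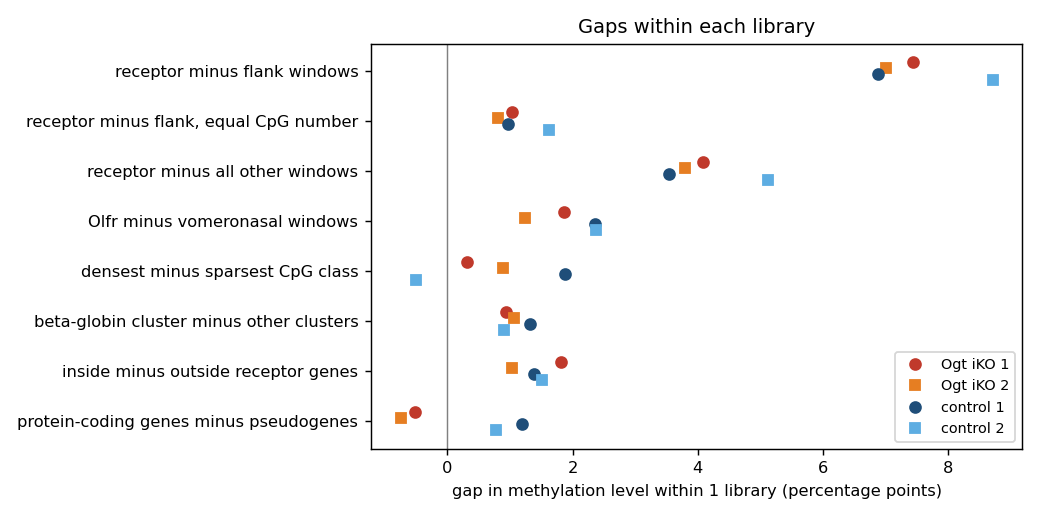
Gap in methylation level between 2 sets of CpGs or windows within 1 library (percentage points) for 8 comparisons, with 1 symbol per library and a line at 0. The iKO and control symbols overlap in 6 of the comparisons. They are apart for odorant minus vomeronasal receptor windows (1.87 and 1.24 against 2.35 and 2.37) and for protein-coding genes minus pseudogenes (-0.515 and -0.747 against 1.19 and 0.770).

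The receptor genes fall into 64 clusters on 19 chromosomes when genes within 1 Mb of each other are joined, and 21 of these are single genes. The 32 clusters with at least 5 receptor windows held 1457 windows. Both iKO libraries lay below both controls in 31 of the 32 clusters and in 32 of their 32 flanks, and the clusters share each library's general level, so these are not independent counts. The cluster differences ranged from -13.5 to -5.00 points with a median of -8.13, and 21 clusters lay between -9 and -7. Among the 13 clusters with at least 40 windows the range was only -8.80 to -7.13 points.

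The largest clusters moved alike. The cluster of 293 genes on chromosome 2 (chr2:85330967-90401674, 286 windows) was at 71.1% and 68.7% in the iKO libraries against 75.5% and 81.3% in the controls, a difference of -8.53 points. The beta-globin cluster of 158 genes (chr7:102476773-105369317, 164 windows), which holds the class I receptors, was at 71.3% and 68.8% against 75.9% and 80.7%, a difference of -8.26. The cluster of 127 genes on chromosome 9 (chr9:37711348-40188094, 134 windows) was at 69.1% and 66.3% against 73.5% and 79.4%, a difference of -8.75. In each of these 3 clusters the groups did not overlap. The beta-globin cluster stood above the other receptor windows by 0.945 and 1.07 points in the iKO libraries against 1.32 and 0.906 in the controls, with overlapping gaps (difference -0.104 points, two-sided exact permutation p = 1).

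Among the clusters with at least 5 windows the extremes were small ones. The largest decrease was that of 5 genes and 6 windows on chromosome 6 (chr6:116492669-116582944), at 65.5% and 62.5% in the iKO libraries against 75.9% and 79.1% in the controls, a difference of -13.5 points over 1441 to 1765 reads per library. Its 6 windows overlap Olfr211, Olfr212, Olfr213, Olfr214 and Olfr215. Both iKO libraries were below both controls in all 6, with differences of -16.5 to -10.8 points, and 4 were called, where 71.6% of all tested windows had groups apart in this direction and 17.3% were called. The called windows include the one that holds the Olfr212 start printed above, at 55.7% and 49.3% in the iKO libraries against 67.4% and 68.1% in the controls (-15.2 points). The flanks of this cluster differed by -6.35 points. Relative to them the cluster stood at -3.69 and -3.71 points in the iKO libraries against at 4.16 and 2.70 points in the controls. The cluster was picked for its large difference, so its window counts and this gap are not separate support for it. The smallest decrease was that of 8 genes and 8 windows on chromosome 11 (chr11:50959009-51143164), at 75.8% and 71.5% in the iKO libraries against 75.9% and 81.4% in the controls, a difference of -5.00 points with 0 windows called. Its iKO replicate 1 and control replicate 1 were nearly equal.

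Of the clusters with at least 5 windows, the one whose groups overlapped held 4 genes and 5 windows on chromosome 17 (chr17:33176416-33269676). Its levels were 65.5% and 60.2% in the iKO libraries against 64.7% and 74.0% in the controls. The 2 windows of Olfr55 and of the first part of Olfr239 had differences of 0.991 and 2.64 points, and that of Olfr63 one of -14.6. Against its own flank, 19 of the 32 clusters had the larger drop, and the gap between cluster and flank was lower in both iKO libraries than in both controls in 8 clusters and higher in 6. In the controls 26 of the 32 clusters stood above their own flank, and control means ran from 69.3% to 81.9%.

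**Figure D3:**
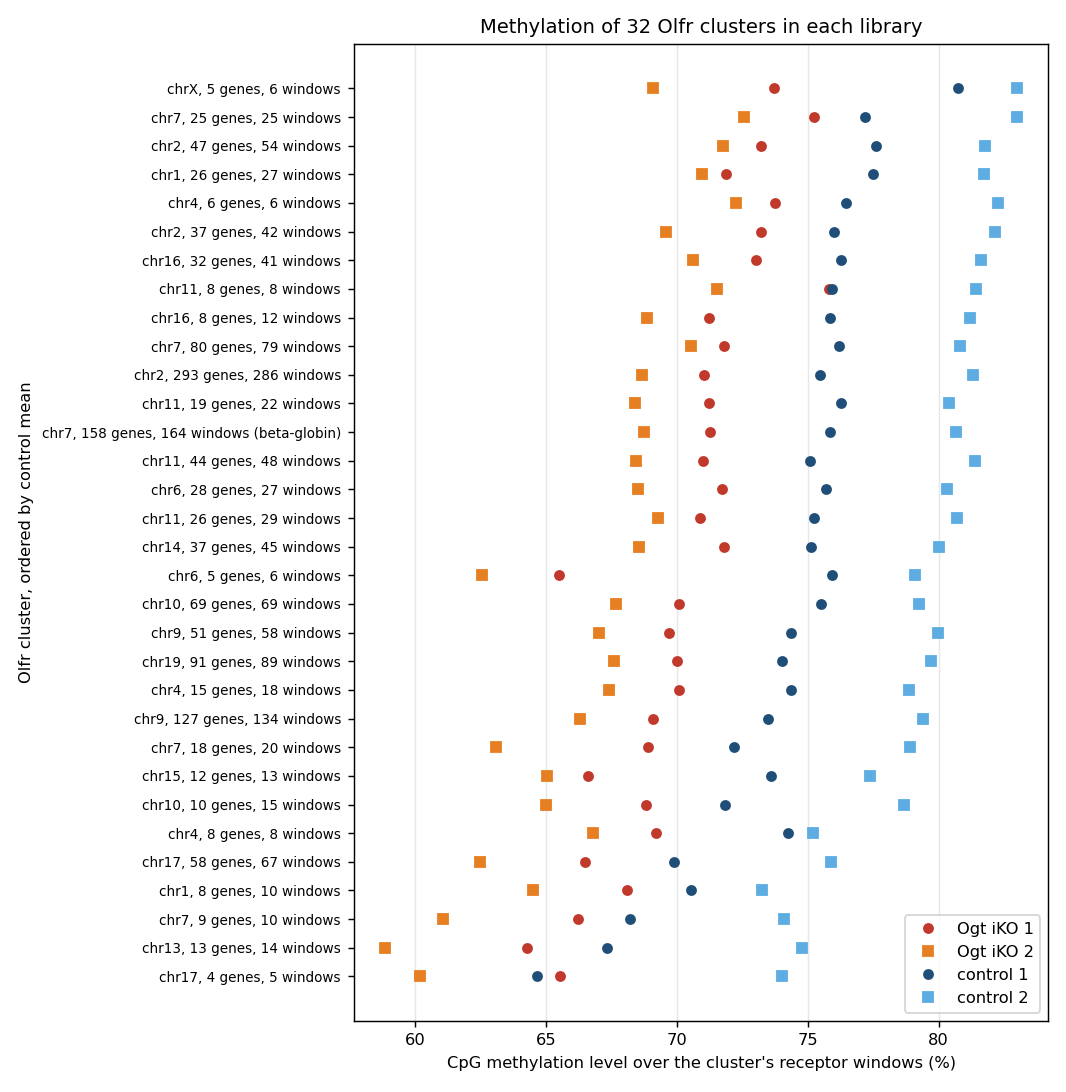
Pooled methylation level (%) of the receptor windows of each of the 32 clusters with at least 5 windows, 1 symbol per library, ordered by control mean. Control replicate 2 is the highest and iKO replicate 2 the lowest symbol in all 32 rows. The iKO and control symbols are apart in all rows except the lowest, the 5-window cluster on chromosome 17.

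The replicates kept the same order in all clusters with at least 5 windows. Control replicate 2 stood above control replicate 1 in 32 of these 32 clusters and iKO replicate 2 below iKO replicate 1 in 32 of 32. Over all 64 clusters, many with a single window, the counts were 59 and 56. The control libraries differed by 5.19 points in receptor windows, by 5.17 in vomeronasal windows and by 3.60 in all other windows. The iKO libraries differed by 2.62, 1.99 and 2.34 points in the same sets. Receptor windows were thus more uneven between the 2 controls than the genome at large, whose windows hold more CpGs. With 18 to 32 CpGs the controls differed by 6.32 points in receptor and 6.10 in flank windows. With 60 to 175 CpGs they differed by 3.95 and 3.39, and receptor windows had the larger value in every class. The part of this in the cluster differences was not tested.

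Within the largest cluster the decrease ran from end to end. Levels were pooled over stretches of 10 neighbouring tested windows along its 5.07 Mb, receptor genes and the sequence between them alike. All 491 stretches were lower in iKO cells, by -11.6 to -4.40 points, and in 483 both iKO libraries lay below both controls. Stretches elsewhere in the genome were not counted. Of all single tested windows 96.4% had a lower iKO mean, and the flanks of this cluster differed by -7.88 points. Neighbouring stretches share windows and are not independent, and at 100 kb or more they are far longer than a receptor gene, so they cannot show an edge at single genes. The control mean of these stretches lay between 73.8% and 83.5%.

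**Figure D4:**
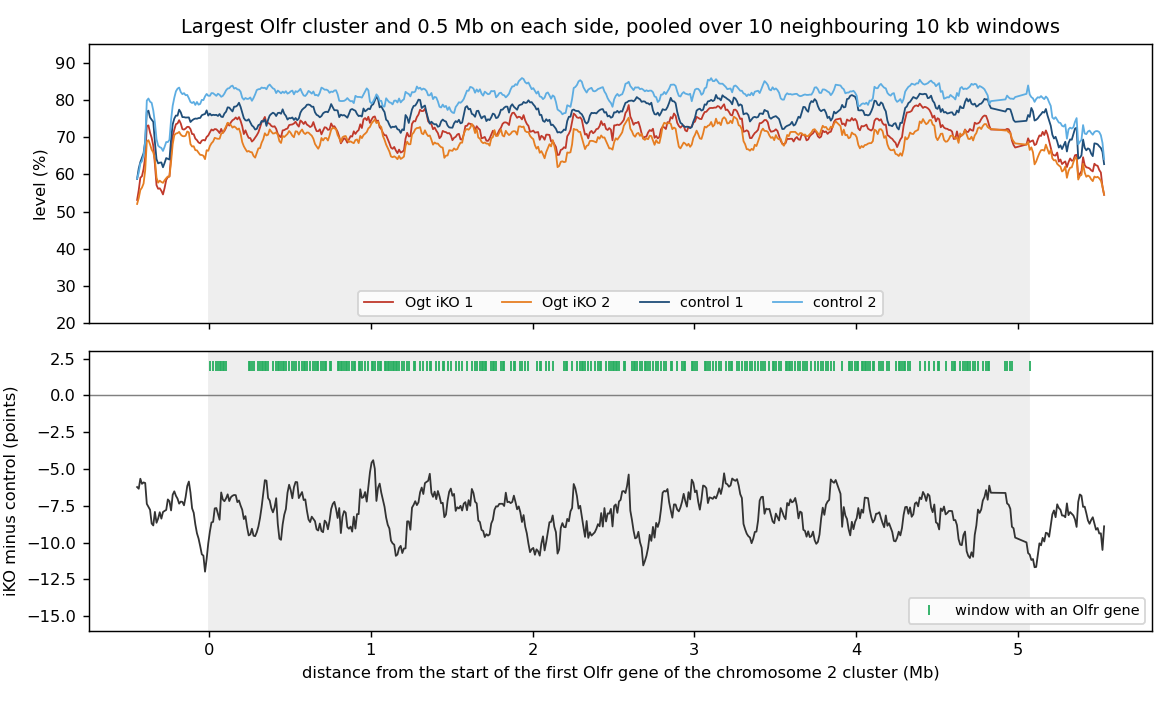
Top, methylation level (%) of each library over stretches of 10 neighbouring tested windows, against the distance (Mb) from the start of the first receptor gene of the largest cluster, on chromosome 2. Bottom, iKO mean minus control mean (points), with green ticks for windows that overlap a receptor gene. The cluster is shaded, and the difference stays below 0 over its whole length (-11.6 to -4.40 points).

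Receptor genes were also compared with the sequence around them. CpGs inside annotated receptor genes (12980 tested) were at 71.9% and 68.6% in the iKO libraries against 75.8% and 81.1% in the controls, and those of the same windows outside the genes (47339) at 70.1% and 67.6% against 74.4% and 79.6%. The genes stood higher by 1.82 and 1.03 points in the iKO libraries against by 1.39 and 1.52 in the controls. These gaps overlapped, and their difference of -0.0290 points was far smaller than the pooled SD of 0.398 (two-sided exact permutation p = 1). The decrease was -8.18 points inside the genes and -8.15 outside.

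Protein-coding receptors and receptor pseudogenes differed by a small amount. The 11461 CpGs inside protein-coding genes were at 71.8% and 68.5% in the iKO libraries against 75.9% and 81.2% in the controls, a decrease of -8.38 points. The 1509 CpGs inside pseudogenes were at 72.3% and 69.3% against 74.7% and 80.4%, a decrease of -6.77 points. The gap of protein-coding genes to pseudogenes was -0.515 and -0.747 points in the iKO libraries against 1.19 and 0.770 points in the controls, so the groups did not overlap (difference -1.61 points, pooled SD 0.239, two-sided exact permutation p = 0.33). The difference turned to 0.319 points when at least 3 reads per CpG were required in every library, and it was -0.869 within clusters, a setting added after seeing the data.

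CpGs at the annotated receptor starts were as methylated as their surroundings. The 1062 tested CpGs of the receptor start windows were at 69.2% and 67.3% in the iKO libraries against 75.0% and 80.1% in the controls, a difference of -9.30 points with groups apart (68.3% ± 1.37 against 77.6% ± 3.63, SD, n = 2 each). The starts of all other genes, which include CpG islands, were at 16.7% ± 0.574 (SD, n = 2) in iKO cells against 18.9% ± 0.277 (SD, n = 2) in controls, which is -2.17 points. Among starts with 1 CpG, receptors were at 69.1% and 65.6% against 74.5% and 80.3%, and other genes at 66.4% and 64.5% against 71.2% and 75.6%. In starts that hold 1 CpG the levels of receptor and other genes were therefore much nearer to each other than over all starts. They moved apart again with more CpGs: in starts with 5 CpGs, receptors (67 tested CpGs) were at 71.6% and 70.2% against 80.8% and 80.6%, and other genes at 53.3% and 51.5% against 58.6% and 61.5%. The receptor decrease was -10.03, -7.37 and -10.3 points in starts with 1, 2 and 3 CpGs, and that of other genes -7.91, -7.94 and -7.88.

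A profile around the starts was pooled over genes, and the few covered CpGs of a single start such as that of Olfr212 can lie far below it. Around the starts of the 944 genes, levels were pooled in 40 bins of 500 bp reaching 10 kb to each side, with 1563 to 3071 CpGs per bin. In all 40 bins both iKO libraries lay below both controls, with differences of -9.74 to -6.25 points, and the bins share libraries and clustered neighbours. Bins pooled over other genes were not counted, and 71.6% of single tested windows had groups apart in this direction. The first 2 bins after the start had 3.25 and 3.15 tested CpGs per gene, against 1.66 to 2.26 in the other bins. The 300-base start windows were searched on both strands for 2 short motifs whose letters do not overlap. TAATTA, a core of homeodomain sites such as those of Lhx2 and Emx2, was in 176 receptor entries (18.6%) and 4.85% of others, and CCCNNGGG, a core of Ebf sites, in 29 (3.06%) and 14.1% of others. These matches are a description of letters in AT-rich windows, not of binding, and none of the 5 printed starts holds either.

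**Figure D5:**
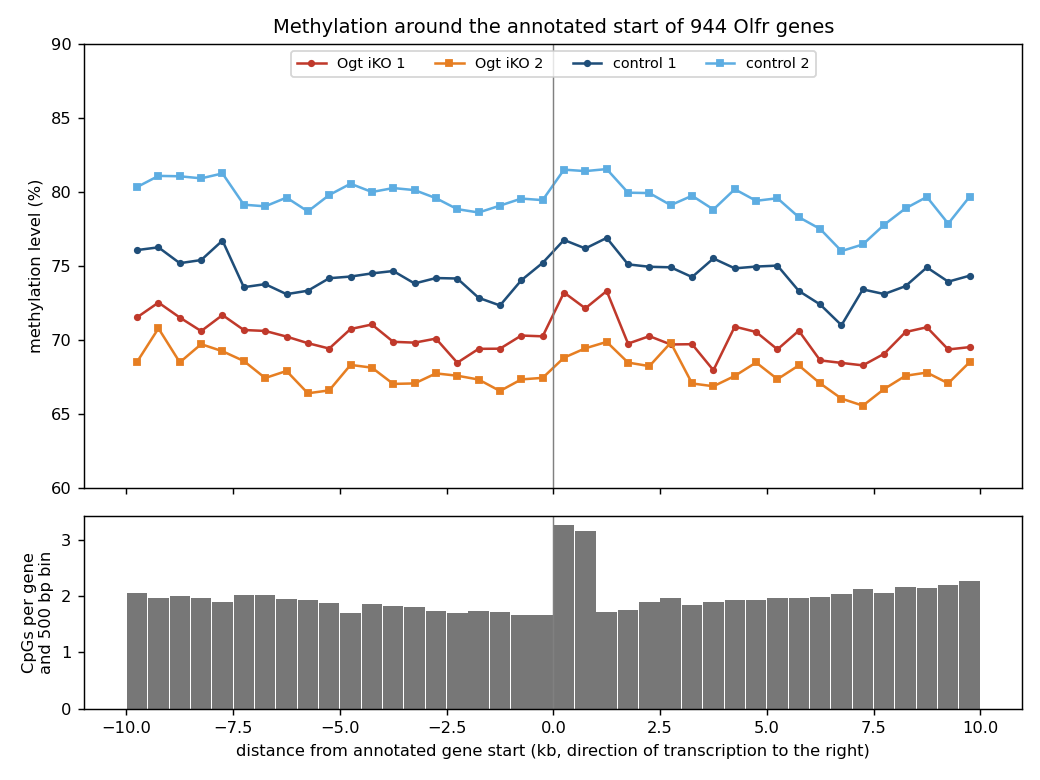
Top, methylation level (%) in each library in 500 bp bins from 10 kb before to 10 kb after the annotated start of 944 receptor genes, in the direction of transcription. Bottom, tested CpGs per gene in each bin. The 4 lines run nearly parallel, with differences between groups of -9.74 to -6.25 points, and CpGs are densest in the first 2 bins after the start (3.25 and 3.15 per gene).

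The windows with the largest decreases were spread over 6 chromosomes. The window of Olfr294 (chr7:86610001-86620000, 27 tested CpGs) was at 62.8% and 48.2% in the iKO libraries against 74.5% and 85.1% in the controls, on 67 to 112 reads per library, a difference of -24.3 points (adjusted p = 0.0140 in the limma-moderated fit). The window of Olfr823 (chr10:130110001-130120000, 36 CpGs) was at 56.5% and 52.4% against 75.6% and 80.9%, on 110 to 154 reads, a difference of -23.8 points (adjusted p = 0.00413 in the limma-moderated fit). In both windows the groups were apart, with the replicates of Olfr823 much closer together than those of Olfr294. The window of Olfr98 in the major histocompatibility region (chr17:37260001-37270000, 33 CpGs) was at 61.9% and 52.9% against 75.7% and 82.9%, a difference of -21.9 points. The window of Olfr1193 in the largest cluster (chr2:88670001-88680000, 45 CpGs) was at 56.7% and 55.5% against 69.3% and 84.2%, a difference of -20.7 points. Here the iKO libraries were nearly equal and the SD of the controls was 10.6 points.

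The other windows among the 8 largest decreases were those of Olfr24 (-21.7 points, chromosome 9), Olfr688 (-21.2, in the beta-globin cluster), Olfr461 (-20.5, chromosome 6) and Olfr873 (-20.1, chromosome 9), on 84 to 194 reads per library. The adjusted p of the 8 windows ranged from 0.00262 to 0.0288 in the limma-moderated fit. Their order is not secure, because their levels rest on 67 to 210 reads per library. Together with the Olfr212 window and the CpG-rich, known and weakly methylated windows named below, 19 called windows are named, and all 19 lost their call without iKO replicate 2 and with limma on logit levels. Leaving out control replicate 2 ended 13 of these calls, leaving out iKO replicate 1 ended 6, and leaving out control replicate 1 ended 1. With at least 3 reads per CpG in every library 13 of the 19 windows could be tested and 9 of these lost their call. With the replicate number added to the fit as a block 6 of the 19 lost theirs, among them those of Olfr294 and Olfr73.

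Some receptor windows with groups apart showed almost no decrease. The window of Olfr147 (chr9:38400001-38410000, 22 CpGs) was at 62.6% and 63.7% in the iKO libraries against 58.6% and 52.6% in the controls, on 57 to 123 reads per library, and thus 7.56 points higher in iKO cells (adjusted p = 0.484 in the limma-moderated fit). The window of Olfr1487 (chr19:13610001-13620000, 46 CpGs) was at 82.7% and 82.0% against 84.7% and 82.7%, a difference of -1.38 points. The window of Olfr769 (chr10:129110001-129120000, 42 CpGs) was at 80.4% and 79.3% against 81.3% and 81.2%, a difference of -1.40 points. Windows of Olfr1498-ps1 and Olfr435 followed with -1.55 and -1.78 points. None of these 5 was called, and 52 receptor windows in all had an iKO mean at or above the control mean.

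The receptor windows with the most CpGs were also lower in iKO cells. The window of Olfr1393 (chr11:49260001-49270000), which also holds part of Mgat1, an enzyme of N-glycan synthesis, had 137 tested CpGs and was at 64.4% and 56.5% in the iKO libraries against 70.7% and 81.7% in the controls, a difference of -15.7 points (adjusted p = 0.000178 in the limma-moderated fit). The window of Olfr718-ps1 (chr5:143130001-143140000, 150 CpGs) was at 54.0% and 54.5% against 65.5% and 69.6%, a difference of -13.3 points. Of 3 windows on chromosome 15, that of Olfr281 (133 CpGs) was at 72.1% and 68.9% against 81.9% and 83.1%, a difference of -11.97 points. All of these had groups apart and were called. The window of Olfr278-ps1 and Olfr279 (129 CpGs) differed by -11.5 points and was called, and that of Olfr240-ps1 and Olfr280-ps1 (128 CpGs) differed by -8.91 points and was not. With at least 3 reads per CpG in every library, the calls of Olfr718-ps1 and of Olfr278-ps1 and Olfr279 were lost.

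Receptors with published ligands or uses were read from the windows they overlap. Their p-values test against no change, not against the general decrease (median -7.79 points over all tested windows). Olfr73 (mOR-EG), whose start is printed above, lay in a window (chr2:88030001-88040000, 41 CpGs) at 64.5% and 67.4% in the iKO libraries against 82.9% and 82.1% in the controls, a difference of -16.6 points (adjusted p = 0.0191 in the limma-moderated fit). Olfr160 (M72) lay in a window (chr9:37710001-37720000, 35 CpGs) at 63.4% and 56.9% against 74.4% and 75.9%, a difference of -15.1 points (adjusted p = 0.0430 in the limma-moderated fit). Both windows were called, with groups well apart. Its neighbour Olfr151 (M71), annotated in RefSeq as a transcribed pseudogene, spans 2 windows, pooled at 70.96% and 70.3% against 75.4% and 84.5%, a difference of -9.33 points with neither window called.

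Of the other receptors on this list, 2 had a called window, which makes 4 of 12 receptors, where 17.3% of all tested windows were called and some receptors span 2 windows. Olfr558, a class I receptor for short-chain fatty acids, spans 2 windows, pooled at 63.9% and 63.8% in the iKO libraries against 76.2% and 80.5% in the controls, a difference of -14.5 points. The one it shares with Olfr33 (chr7:102710001-102720000) differed by -17.3 points and was called (adjusted p = 0.00816 in the limma-moderated fit). Its other window differed by -10.5 points and was not called. Olfr90 lay in a window (chr17:37080001-37090000, 85 CpGs) at 38.8% and 34.7% against 48.5% and 49.7%, a difference of -12.3 points (adjusted p = 0.0231 in the limma-moderated fit). The groups were apart in both. Of the same 4 calls those of Olfr160 and Olfr90 were also lost with edgeR.

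The windows of Olfr2 (I7, an aldehyde receptor), Olfr17 (P2), Olfr16 (MOR23, a lyral receptor), Olfr544 (an azelaic acid receptor) and Olfr15 were not called, with differences of -9.52, -8.72, -7.24, -7.03 and -8.76 points. In all 5 the iKO libraries lay below the controls, as in 71.6% of all tested windows. Olfr78, a class I receptor also used outside the nose, spans 2 windows pooled at 72.7% and 67.6% in the iKO libraries against 71.7% and 80.6% in the controls, so the groups overlapped. Olfr1507 (MOR28), the receptor nearest to the H enhancer and next to the T-cell receptor alpha locus, was at 76.4% and 73.7% against 77.4% and 77.2%, a difference of -2.29 points, the smallest of these 12 receptors.

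Few receptor windows were weakly methylated. In the controls 10 windows (0.663%) were below 50%, against 4.68% of all tested windows, and 4 of these 10 lay in the chromosome 17 cluster of the major histocompatibility region. Receptor windows hold fewer CpGs (median 42 listed against 70), and the part of CpG number was not tested. The 10th percentile of the control level was 69.0% in receptor and 68.7% in flank windows with 18 to 32 CpGs. With 60 to 175 CpGs it was 67.7% and 54.9%. The window of Olfr94 (chr17:37190001-37200000, 115 CpGs), which also holds part of Ubd, a ubiquitin-like gene, was the lowest at 23.0% and 15.9% in the iKO libraries against 33.3% and 32.7% in the controls, a difference of -13.6 points (adjusted p = 0.00307 in the limma-moderated fit). The window of Olfr288 (chr15:98180001-98190000, 123 CpGs) was at 36.2% and 33.3% against 48.5% and 47.8%, a difference of -13.4 points. These 2 windows and that of Olfr90 were called, with groups apart. The other 7 were not called and differed by -12.5 to -2.85 points. All 10 were picked by their control level.

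The rule's limit of 10 CpGs left out few windows. Of 5 windows below it, 3 had any CpG covered in all libraries, and these overlapped Olfr1506 (4 CpGs, 16.7 points), Olfr250 (5 CpGs, -0.688 points) and Olfr251 (8 CpGs, -0.800 points). Just inside it were the windows of Olfr1055 (10 CpGs, -9.17 points), Olfr247 (12 CpGs, -17.3 points), Olfr296-ps1 (14 CpGs, -2.003 points), Olfr1184 (15 CpGs, -4.15 points) and Olfr1196 (15 CpGs, 2.94 points).

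Genes that act with the receptors were read from a list of 38, covering 340 windows. The list holds the transduction chain, receptor transport proteins, factors of receptor choice and silencing, and trace amine receptors, the other receptor family of the main olfactory epithelium. Of its windows 75 (22.1%) were called lower in iKO cells, against 17.3% of all tested windows, and 0 higher. The median window difference was -7.54 points, against -7.79 over all tested windows, and the windows held a median of 92.5 listed CpGs, against 70. Among all tested windows with 60 to 175 listed CpGs 24.5% were called lower. The 22.1% of the list is over its windows of any CpG number, and its share within that class was not counted. By role, 35 of 173 transduction windows, 4 of 16 transport windows, 32 of 143 choice and silencing windows and 4 of 8 trace amine receptor windows were called.

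The largest decreases of the list were in transduction genes. Cnga2, the main subunit of the cyclic-nucleotide-gated channel, was at 73.3% and 63.7% in the iKO libraries against 82.4% and 86.6% in the controls, a difference of -16.01 points over 59 CpGs. Cnga4, another subunit that lies just beside the beta-globin receptor cluster, was at 56.6% and 53.2% against 70.97% and 69.8%, a difference of -15.5 points. Omp, the olfactory marker protein of mature neurons, was at 59.0% and 56.5% against 71.4% and 74.9%, a difference of -15.4 points. In all 3 the groups were apart and at least 1 window was called.

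Other members of the list with a called window ranged from -13.6 points in Cbx5 (heterochromatin protein 1 alpha) to -4.77 in Slc24a4, a sodium-calcium exchanger. Kdm1a, the histone demethylase needed for the onset of receptor expression, was at 54.5% and 53.8% in the iKO libraries against 64.5% and 66.6% in the controls, a difference of -11.4 points with 5 of 6 windows called. Both iKO libraries were below both controls in 35 of the 38 genes and in 12 of the 15 choice and silencing genes. A gene pools up to 60 windows, so these counts have no like share over the genome. By single windows the groups were apart in this direction in 263 of the 340 on the list (77.4%), against 71.6% of all tested windows. The exceptions were Lhx2, Emx2 and Atf5, a trio of transcription factors of receptor choice, whose groups overlapped, with differences of 0.237, -0.139 and -0.692 points. Their control levels of 31.7%, 24.3% and 23.8% were far below those of the receptor windows.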

How the data were processed

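Whole-genome bisulfite libraries of 4 samples were used, 2 Ogt iKO and 2 control. Per the submitters' processing notes, BSMAP, Picard and mm10 were used; versions, filters and the removal of duplicates are not given in the sources used here. The authors deposited 1 table per library. Per the file headers, its columns are read counts per CpG (C reads, and C plus T reads, with the strands merged) and an effective C/T depth, corrected for C/T variants, which need not be whole, is treated here as an estimated count and served only as an alternative depth. The authors' deposited fraction (methylation level) was not used. Columns that belong to no sample numbered 0. Mean depth was 3.35 to 4.04 reads per listed CpG, so precision came from pooling, and reads carry no molecular identifiers.

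CpGs of the autosomes and X read at least once in every library were pooled in 10 kb windows with at least 10 such CpGs (Python 3.11.15, pandas 2.3.3, NumPy 2.4.6, PyArrow 21.0.0). Genes were placed with a RefSeq list (GRCm38.p6), without its entries on alternate scaffolds. The quasi-binomial fit used R 4.3.3 with the Pearson dispersion moderated over all windows by limma 3.58.1 and kept at 1 or more. limma gave every window the same dispersion, 2.29, so 1 library can decide a call where replicates lie far apart. The degrees of freedom of the F test in this fit were also pooled over all windows, so they are not those of 4 libraries. Alternatives were edgeR 4.0.16 and limma applied to logit levels (0.5 reads added). Values per library were compared by exact permutation tests (SciPy 1.17.1). The group was the only term. Same-numbered replicates did not deviate together (correlation -0.0175 over all windows), so the numbers were not used as pairs.

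The members, gene lists and tests were chosen with earlier results of these data known. Named windows are the 8 largest decreases among called windows with at least 20 tested CpGs and groups apart, any called higher, the 5 nearest to or above 0, the 5 with most CpGs, and 12 receptors with published ligands or uses. Clusters named are the 3 with most windows and the extremes among those with at least 5. The cluster whose groups overlap, the low-level windows and Olfr212 were named after their values were seen. Other alternatives were read minimums of 3 and 5, 20 CpGs per window, thinning of all libraries to the shallowest, removal of CpGs above 5 times the median depth, unweighted means, leaving out each library, the replicate block, flanks 500 to 1000 kb away, clusters joined at 500 kb and size limits of 5 and 20 points.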

Additional observations from a re-analysis of the deposited data

How the results depend on the processing

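The level of the receptor windows stayed lower in iKO cells under all 12 alternatives, at -10.8 to -5.57 points when 1 library was left out and at -3.43 with at least 5 reads, where 1 window was left. The number of receptor windows called lower (143) was within 1.5 times for 6 of 15 alternatives. It was 4 to 308 without 1 library (4 when iKO replicate 2 was left out, 47 for iKO replicate 1, 14 for control replicate 2 and 308 for control replicate 1), which is 0.265%, 3.12%, 0.928% and 20.4% of receptor windows against 1.44%, 9.09%, 3.97% and 29.2% of all windows. It was 44 with at least 3 reads per CpG (4.5% of 978 windows, against 7.45% of all), 0 with at least 5 reads (1 window), 0 with limma on logit levels (528 windows lower at an unadjusted p under 0.05) and 8 with a limit of 20 points (0.531% against 0.445% of all, the one setting run in which the receptor share was the higher). With the replicate number as a block it was 42 (2.79% against 8.24%), although the check gave no sign of pairing, and the differences in level are unchanged by the block. edgeR called 128. The signalling list (75) gave 7 to 117 without 1 library, 30 with 3 reads, 0 with 5 reads, 0 with limma on logit levels, 1 with a limit of 20 points and 40 with the block, and is read against the same shares of all windows. In each of these settings 0 receptor windows were called higher. Directions that turned were all of differences inside or near the spread between libraries, apart from the vomeronasal and the pseudogene gap. Against the flanks the difference was 2.54 with 5 reads and -1.50 to 0.341 without 1 library. Within CpG classes it was 0.919 with 5 reads and 0.0470 with flanks 500 to 1000 kb away. Against all other windows it was 1.98 with 5 reads and -1.19 to 0.398 without 1 library, and against vomeronasal windows 6.15 with 5 reads. The densest minus sparsest class gave -1.27 to 1.10, and the inside minus outside gap -0.421 to 0.363, without 1 library. The beta-globin gap was 0.297 with 3 reads and -0.310 to 0.102 without 1 library, and the protein-coding minus pseudogene gap 0.319 with 3 reads. With 5 reads only 1 receptor window was left, so 4 of these gaps had no value there and the others rest on that window. The cause of these turns was not tested. At about 4 reads per CpG a single CpG or start could not be resolved.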

Other observations

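Windows that overlap no gene at all were set beside the receptor windows, a choice made after seeing the data. The 1124 flank windows outside genes were at 69.7% and 67.4% after 4-OHT against 74.1% and 78.1% for the controls, a difference of -7.63 points. They stood much closer to the receptor windows than did the flanks as a whole, whose control mean was 69.5% ± 2.37 (SD, n = 2) against 76.1% ± 2.82 (SD, n = 2) outside genes and 77.3% ± 3.67 (SD, n = 2) in receptor windows.

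Single receptor clusters differed in how many windows were called. In the beta-globin cluster 19 of 164 windows (11.6%) were called, in the chromosome 17 cluster of the major histocompatibility region 11 of 67 (16.4%), and on chromosome 15 (12 genes) 5 of 13 (38.5%), against 17.3% of all tested windows. In the largest cluster, on chromosome 2, 20 of 286 (6.99%) were called. The median listed CpGs were 37.5 in the chromosome 2 cluster, 42 in the chromosome 17 cluster, 50.5 in the beta-globin cluster and 120 in the chromosome 15 cluster, and the part of CpG number in these shares was not tested.

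The trace amine receptors are a receptor family with its own cluster on chromosome 10. All 7 of its genes that are on the list were lower in both iKO libraries than in both controls. Each gene was pooled over the 1 or 2 windows it spans, and 71.6% of single tested windows were lower in this way. Taar2 and Taar3 share a window, so the genes are not separate counts. Taar8a was at 67.9% and 67.2% against 76.8% and 81.9%, a difference of -11.7 points, and Taar9 at 66.2% and 62.6% against 73.1% and 77.3%, a difference of -10.8. The smallest difference was that of Taar4, at -3.28 points.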
